A study of Mus musculus with 15 samples.

Results

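The alpha globin genes Hba-a1 and Hba-a2 and the beta globin genes Hbb-bs and Hbb-bt of the adult mouse were followed through 15 RNA-seq libraries of whole mouse blood. They were chosen by symbol, as the genes of adult hemoglobin in C57BL/6 mice, and make up 4 of the 55416 gene identifiers in the count files. All 4 had counts in every library and passed the filter on low counts in every comparison.

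The study asked how the order of immunotherapy and neck dissection (ND), the surgical removal of the neck lymph nodes, shows in the blood. Its 3 groups of 5 C57BL/6 mice, with 1 library per mouse from a cheek bleed, were untreated mice without surgery, mice given αCTLA-4 and early ND, and mice given αCTLA-4 and late ND. αCTLA-4 is an antibody that blocks an inhibitory receptor of T cells. The labels give all 15 samples the same host model, a wild-type mouse with 1000000 4MOSC1 cells placed in the tongue and grown for 10 days. The 4MOSC1 line comes from an oral squamous carcinoma of the mouse. The labels do not say separately whether untreated mice carried tumors, and the study's text and figure legend differ on whether blood was drawn before or after the late operation. Late ND therefore names a group here and not a state of the animals. Words such as fell and rose below compare groups and do not describe a change in time.

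Hemoglobin, the oxygen carrier of red cells, is a tetramer of a pair of alpha chains and a pair of beta chains, each holding a heme. Red cell precursors make both chains in near balance, since free alpha chains precipitate and damage the cell. Adult mice carry duplicated alpha genes on chromosome 11 and a pair of adult beta genes on chromosome 7. In the Hbb-s haplotype of C57BL/6 these are Hbb-bs and Hbb-bt. Mature mouse red cells have lost their nucleus and most RNA, so hemoglobin RNA in blood comes largely from reticulocytes, the youngest red cells, and its amount in whole blood moves with their number as well as with the RNA in each. In these bulk libraries fewer red cells of that kind and less RNA per cell cannot be told apart.

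The pairs of genes are near copies, and the stretch around the base that separates each pair is shown because the counts depend on it. Positions are counted from 1 at the A of the start codon, the differing base is in capitals, and each sequence is the coding strand of exon 3 in GRCm39.
Hba-a1, chr11:32234313-32234373, plus strand: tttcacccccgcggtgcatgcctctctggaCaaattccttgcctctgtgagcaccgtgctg
Hba-a2, chr11:32247130-32247190, plus strand: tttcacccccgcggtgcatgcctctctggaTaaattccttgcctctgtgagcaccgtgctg
Hbb-bs, chr7:103475872-103475929, minus strand: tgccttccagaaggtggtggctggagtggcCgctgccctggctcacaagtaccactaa
Hbb-bt, chr7:103461863-103461920, minus strand: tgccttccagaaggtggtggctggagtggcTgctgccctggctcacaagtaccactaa

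From Hba-a1 to Hba-a2 the only change in 429 coding bases was C381T in codon 127, and all 142 residues were the same. Their transcribed parts outside the coding sequence matched at every base that could be aligned. From Hbb-bs to Hbb-bt the only change in 444 coding bases was C417T in codon 139, and all 147 residues were the same. The beta pair differed more outside the coding sequence, with 78.2% of 87 aligned bases the same before the start codon and 72.5% of 131 after the stop codon. A read pair that covers no differing base aligns equally well to both copies and is set aside by a counter that keeps unique alignments. Of the 150 to 300 base fragments that could be cut from the coding sequence, 17.5% to 37.7% held the differing alpha base and 9.49% to 19.3% the differing beta base. These shares leave out fragments that reach beyond the coding sequence, where the beta pair differed and the alpha pair matched at every aligned base. They therefore do not rank the pairs by how much of each whole transcript can be counted. The counts below are therefore a uniquely placed fraction of the hemoglobin RNA, and a ratio of alpha to beta counts is not a ratio of molecules.

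Hba-a1 (ENSMUSG00000069919) lies at chr11:32233186-32234504 and Hba-a2 (ENSMUSG00000069917) at chr11:32246168-32247320, both on the plus strand of GRCm39. Hbb-bs (ENSMUSG00000052305) lies at chr7:103475730-103482989 and Hbb-bt (ENSMUSG00000073940) at chr7:103461727-103465047, both on the minus strand. The annotation used here, GENCODE M39, puts the pseudogenes Hbb-bh3 and Gm15115 over Hbb-bs, and both had 0 counts. Noncoding genes on the opposite strand overlap Hbb-bs (Gm74438) and Hbb-bt (Gm57232), and they were not listed in the count files.

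The promoters are shown as a description of the genes, and their part in the levels was not tested. Each run is the 150 bases before the transcription start in RefSeq's GRCm38.p6 table, which was not matched to the transcript starts of GENCODE M39. Capitals mark the letters searched on both strands, which were CCAAT for the CCAAT box, CACCC for the CACCC box, GATA for the GATA motif and TATAA for the TATA box.
Hba-a1, GRCm38.p6 chr11:32283522-32283671, plus strand: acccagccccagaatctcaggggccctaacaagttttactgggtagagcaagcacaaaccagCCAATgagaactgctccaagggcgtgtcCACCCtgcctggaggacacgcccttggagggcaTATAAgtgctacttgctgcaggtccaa
Hbb-bs, GRCm38.p6 chr7:103827929-103828078, minus strand: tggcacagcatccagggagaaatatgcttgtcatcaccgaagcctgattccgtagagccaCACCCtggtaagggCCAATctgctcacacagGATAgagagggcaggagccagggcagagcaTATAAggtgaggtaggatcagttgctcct
Hbb-bt, GRCm38.p6 chr7:103813924-103814073, minus strand: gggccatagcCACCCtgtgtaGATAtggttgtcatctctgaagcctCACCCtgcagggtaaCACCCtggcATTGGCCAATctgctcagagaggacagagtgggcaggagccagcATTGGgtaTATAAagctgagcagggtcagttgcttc

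Hba-a1 and Hba-a2 shared their promoter at all 247 bases that could be aligned, and Hbb-bs and Hbb-bt shared 71.7% of 244. The 150 bases of each of the 4 genes held the CCAAT box, the CACCC box and the TATA box, which were found in 24.5%, 37.4% and 14.2% of 32851 promoters of the same length. TATAA began at base -27 in Hba-a1, -30 in Hba-a2, -29 in Hbb-bs and -28 in Hbb-bt. GATA, the core of the letters bound by the erythroid factor GATA1, was found once in each beta promoter and in neither alpha window, against 35.7% of all promoters. Hbb-bt held 3 CCAAT boxes and 3 CACCC boxes, and the other 3 genes 1 of each. A match of these short strings is a description of the window and no binding was measured.

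Gene counts per library ran from 5527108 to 13924361, with 7849602 or more in each late ND library and at most 7182346 in each early ND library. At this depth the 95% Wilson interval of a member's share of a library reached at most 0.0408 percentage points to either side, which covers counting error only and is far below the spread between mice. A set of 3 libraries, untreated 2, late 2 and late 3, stood apart in ribosomal sequence. The 18S ribosomal gene Rn18s-rs5 had 313 to 766 CPM, which is its counts scaled to a library total of 1000000, in them and at least 13402 in the other 12, and mitochondrial ribosomal RNA had 478 to 1361 CPM against at least 9119. No early ND library belonged to this set, and the tests below are also given without these 3 libraries.

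The alpha genes took more counts in untreated and early ND mice than in late ND mice. Hba-a1, the more heavily counted alpha gene, had 153016, 172278, 163628, 139515 and 128048 CPM in untreated mice 1 to 5. In early ND mice 1 to 5 it had 110030, 162023, 136356, 180624 and 126533 CPM. In late ND mice 1 to 5 it had 85541, 106095, 111143, 86282 and 46110 CPM. Every late ND mouse lay below every untreated mouse, while late 3 lay just above early 1.

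Hba-a2, the other alpha gene, which encodes the same chain, had 46912, 30493, 37951, 26369 and 21923 CPM in the untreated mice. In the early ND mice it had 17471, 30327, 14656, 22706 and 47721 CPM. In the late ND mice it had 15745, 13920, 23066, 19117 and 9616 CPM. Its groups overlapped in both comparisons with late ND. The early ND mice alone spanned most of the range seen in all 15 libraries.

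Late and early ND mice did not overlap in the beta genes, while Hba-a1 overlapped through late 3, a library poor in 18S sequence. Without late 2 and late 3, the log2 fold changes of late against early ND given below were similar in both pairs. They were -1.85 and -1.70 for Hba-a1 and Hba-a2, and -1.90 and -2.05 for Hbb-bs and Hbb-bt. Hbb-bs, the main adult beta gene, had 349376, 96031, 373192, 267573 and 245995 CPM in the untreated mice. In the early ND mice it had 230804, 274027, 221781, 394963 and 284810 CPM. In the late ND mice it had 170738, 47097, 50675, 168549 and 83210 CPM. All late ND mice lay below all early ND mice, and untreated 2 was the 1 untreated mouse within the late ND range. The lowest 2 values of all belonged to late 2 and late 3, which with untreated 2 form the set poor in 18S sequence.

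Hbb-bt, the other adult beta gene, had 50397, 17064, 42679, 33965 and 22665 CPM in the untreated mice. In the early ND mice it had 24649, 33692, 24114, 42397 and 47756 CPM. In the late ND mice it had 17925, 7606, 7609, 18923 and 9719 CPM. As with Hbb-bs, there was no overlap between late and early ND, and untreated 2 again lay inside the late ND range. On this CPM of library totals, 2 of the 4 genes had every late ND mouse below every early ND mouse, against 0.503% of the 13315 genes tested, and 1 of 4 had every late ND mouse below every untreated mouse, against 0.133% of 13547.

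**Figure D1:**
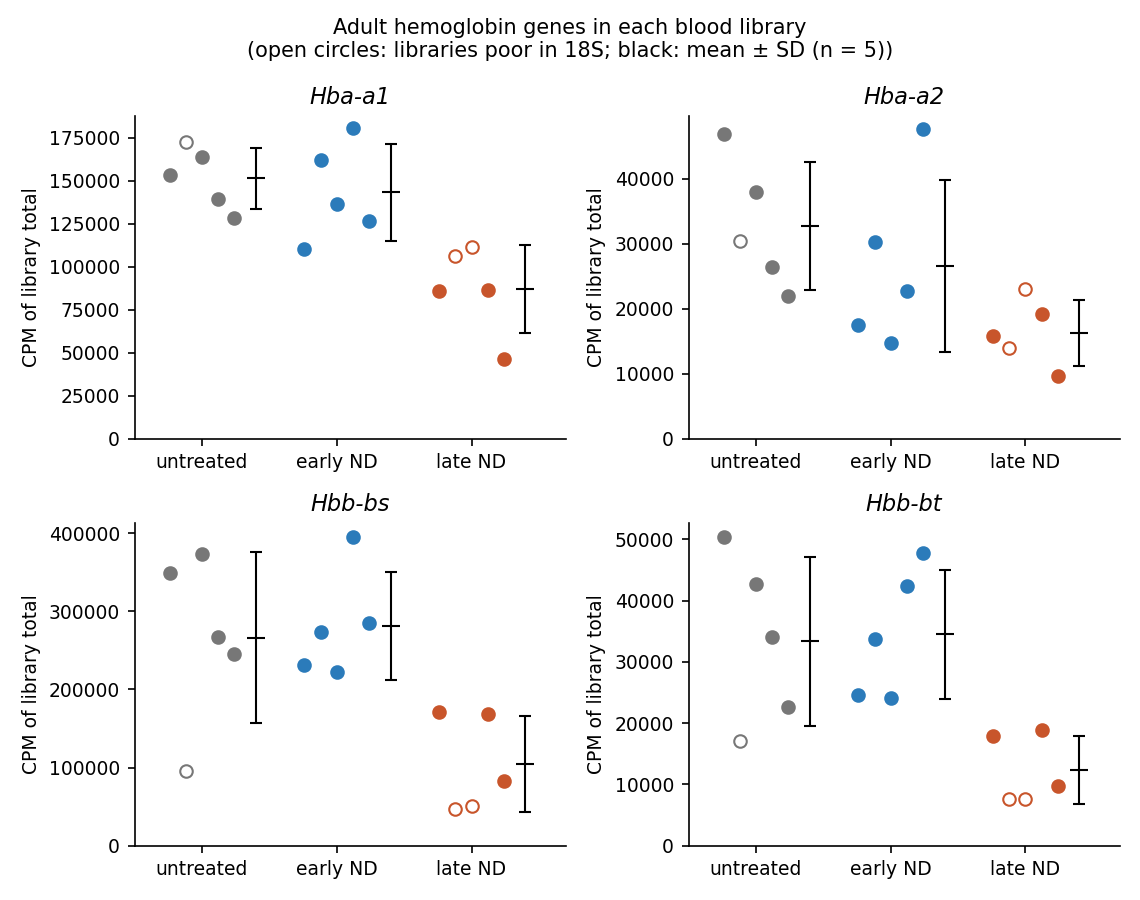
Level of each adult hemoglobin gene in every library, as CPM of the library total, with mean and SD of 5 mice per group in black. The 3 open circles are the libraries poor in 18S sequence, where Hbb-bs was 47097 to 96031 CPM while Hba-a1 was 106095 to 172278 CPM.

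Together the 4 genes took 31.6% to 61.7% of the gene counts in untreated mice, 38.3% to 64.1% in early ND mice and 14.9% to 29.3% in late ND mice. These shares are given as a description. They did not overlap between late ND and either other group. Hbb-bs and Hba-a1 held the first 2 ranks among all genes in every library. Hba-a2 ranked between 3 and 6, and Hbb-bt between 3 and 5.

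Per kilobase of full transcript, mean counts in untreated mice were 401255 CPM per kb for Hbb-bs, 205009 for Hba-a1, 50587 for Hba-a2 and 47378 for Hbb-bt. Full length is not the length over which the copies can be told apart. This order is therefore one of counts and not of molecules. Hba-a2 and Hbb-bt had SDs between mice of 15274 and 19546 CPM per kb. Within an untreated library the count ratio of Hba-a2 to Hbb-bt was 0.776 to 1.79. In early ND mice the order began the same way, with 423610 CPM per kb for Hbb-bs and 193920 for Hba-a1. Hbb-bt had 49036 ± 14959 and Hba-a2 41076 ± 20463 CPM per kb (SD, n = 5). Within an early ND library the count ratio of Hba-a2 to Hbb-bt was 0.536 to 0.999. In late ND mice Hbb-bs had 156707 ± 92637 CPM per kb and Hba-a1 117932 ± 34693 (SD, n = 5). The count ratio of Hba-a1 to Hbb-bs was 2.25 in late 2 and 2.19 in late 3. It was 0.501 to 0.554 in the other late ND mice. Hba-a1 exceeded Hbb-bs in CPM in untreated 2, late 2 and late 3, the set poor in 18S sequence, and in none of the other 12 libraries.

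The count ratio of alpha to beta genes, summed within each pair, fell into separate clusters that followed the 18S sequence and not the groups. In the untreated mice the ratio was 0.500, 1.79, 0.485, 0.550 and 0.558. In the early ND mice it was 0.499, 0.625, 0.614, 0.465 and 0.524. In the late ND mice it was 0.537, 2.19, 2.30, 0.562 and 0.600. The 3 libraries poor in 18S sequence held 1.79 to 2.30 and the other 12 held 0.465 to 0.625, with nothing between. With counts divided by full transcript length the ratio was 1.66 to 2.14 in the 3 libraries and 0.427 to 0.578 in the 12. That length is not the length that can be counted uniquely.

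The high ratios went with low beta counts, and alpha counts were also the highest of their group. In shares of gene counts, untreated 2 held 20.28% alpha counts, against 14.997% to 20.16% in the other untreated mice, and 11.3% beta counts, against 26.9% to 41.6%. Late 2 and late 3 held 12.002% and 13.42% alpha counts, against 5.57% to 10.5% in the other late ND mice, and 5.47% and 5.83% beta counts, against 9.29% to 18.9%. Beta shares thus lay below and alpha shares above every other mouse of the group, by a narrow margin for alpha in untreated 2. Pooled over groups, which are unevenly represented in the set, alpha genes took 15.2% ± 4.43 of gene counts (SD, n = 3) in the set poor in 18S sequence and 15.2% ± 4.70 (SD, n = 12) in the other libraries. Beta genes took 7.54% ± 3.27 (SD, n = 3) and 28.6% ± 10.2 (SD, n = 12). Against the erythroid heme enzyme gene Alas2, beta counts were 7.80 to 9.83 per Alas2 count in the 3 libraries and 17.9 to 41.4 in the 12, while alpha counts were 17.1 to 22.6 and 11.2 to 23.1. Alignments set aside as not unique numbered 13.2 to 13.98 per hemoglobin count in the 3 libraries and 9.35 to 12.2 in the 12. Both ribosomal measures, the not unique alignments and the ratio moved together in these libraries, and their part in the ratio was not tested.

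By group, the mean ratio was 0.777 ± 0.569 in untreated, 0.545 ± 0.0710 in early ND and 1.24 ± 0.922 in late ND mice (SD, n = 5). On the log2 scale late ND exceeded early ND by 0.86, which was within the spread of the late ND mice (p = 0.135 and, adjusted over 9 tests, 0.893, from an exact permutation test with both sides counted). The difference between late ND and untreated mice was 0.56 (exact permutation test, p = 0.198, adjusted p = 0.893) and that between early ND and untreated mice -0.30 (exact permutation test, p = 0.698, adjusted p = 0.929). The smallest p that 5 mice against 5 allow is 0.00794. In the 12 libraries that held more 18S sequence the mean ratio was 0.523 ± 0.0364 (n = 4), 0.545 ± 0.0710 (n = 5) and 0.566 ± 0.0316 (n = 3), in the same order of groups. There the log2 differences were smaller in size, at 0.062, 0.11 and 0.053 (exact permutation tests, p = 0.607, 0.229 and 0.619, each adjusted p = 0.865). The last, early ND against untreated mice, had turned its sign. No difference in this ratio between groups was detectable there, where 3 late ND against 5 early ND mice allow a smallest p of 0.0179.

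**Figure D2:**
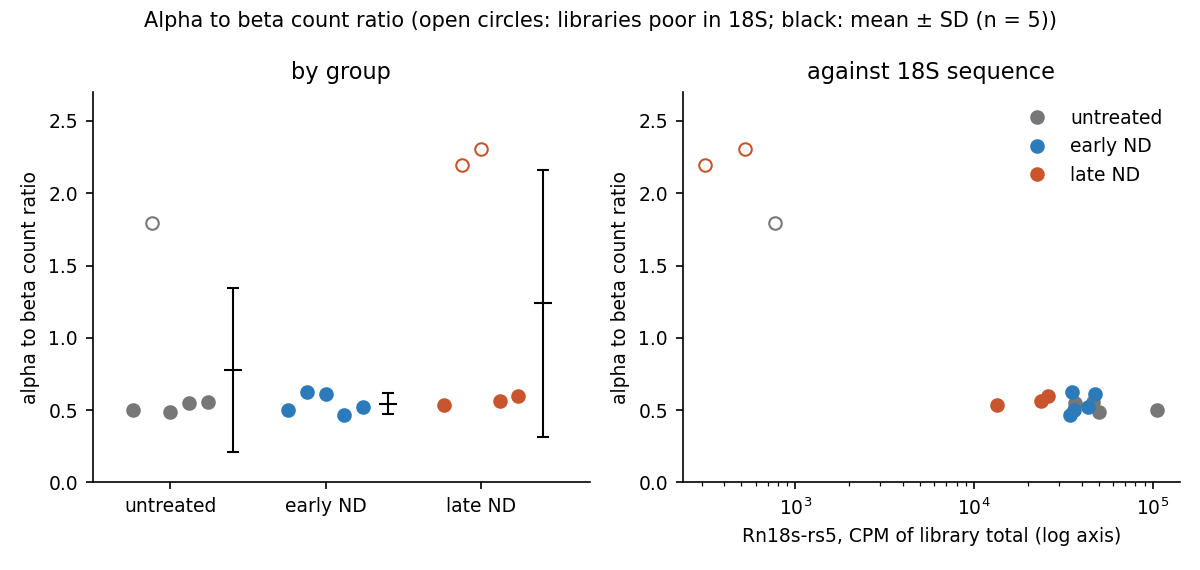
Count ratio of the alpha to the beta genes in each library, by group with mean and SD of 5 mice (left) and against the CPM of the 18S gene Rn18s-rs5 on a log axis (right). The 3 open circles, from the untreated and late ND groups, lie at 1.79 to 2.30 and at 313 to 766 CPM of 18S sequence, and the 12 filled circles at 0.465 to 0.625.

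Across libraries the levels of the 4 genes went together. Pearson's r of log2 CPM, computed on totals without the 4 genes and given as a description, was 0.979 for Hbb-bs with Hbb-bt and 0.881 for Hba-a1 with Hba-a2 over 15 libraries. Across the chains, Hba-a1 with Hbb-bs had r = 0.798 over 15 libraries and 0.988 over the 12 rich in 18S sequence. The points share the 3 groups and the scaling of each library, so r is a description of these samples.

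Within each pair 1 copy took most counts. Hba-a1 took 76.5%, 85.0%, 81.2%, 84.1% and 85.4% of alpha counts in untreated mice 1 to 5. In early ND mice it took 86.3%, 84.2%, 90.3%, 88.8% and 72.6%, and in late ND mice 84.5%, 88.4%, 82.8%, 81.9% and 82.7%. Early ND mice held both the lowest and the highest share. The means of 82.4% ± 3.68, 84.5% ± 7.02 and 84.1% ± 2.60 (SD, n = 5) differed by less than the spread between mice (exact permutation tests of the 3 pairs of groups, p = 0.476 to 0.921, each adjusted p = 0.929). In the 12 libraries with more 18S sequence the p were 0.516 to 0.821 (exact permutation tests, each adjusted p = 0.865).

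Hbb-bs took 87.4%, 84.9%, 89.7%, 88.7% and 91.6% of beta counts in the untreated mice. In early ND mice it took 90.4%, 89.1%, 90.2%, 90.3% and 85.6%, and in late ND mice 90.5%, 86.1%, 86.9%, 89.9% and 89.5%. The set poor in 18S sequence held 3 of the 4 lowest shares, and early 5 the other. Group means of 88.5% ± 2.50, 89.1% ± 2.01 and 88.6% ± 1.95 (SD, n = 5) again lay within the spread (exact permutation tests of 3 pairs, p = 0.659 to 0.929, each adjusted p = 0.929), and in the 12 libraries the p were 0.629 to 0.865 (each adjusted p = 0.865). Early 5 was low in both shares, and untreated 1, with the second lowest Hba-a1 share, had 87.4% for Hbb-bs.

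**Figure D3:**
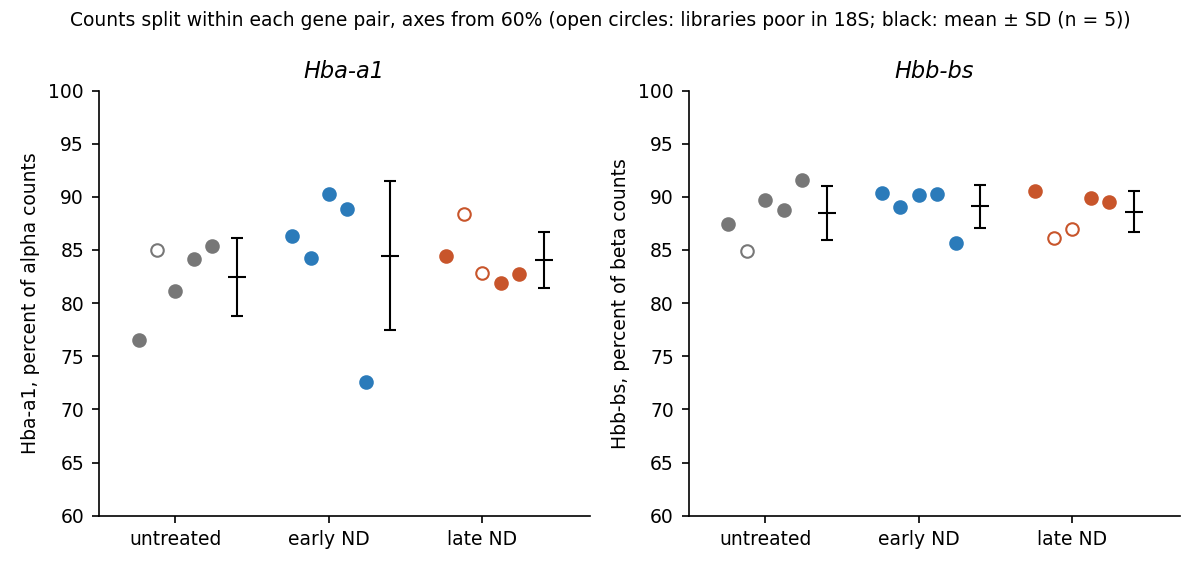
Share of alpha counts taken by Hba-a1 (left) and of beta counts taken by Hbb-bs (right) in each library, in percent on axes that begin at 60%, with mean and SD of 5 mice per group. The groups overlap in both panels, and early 5 is low in both, at 72.6% and 85.6%.

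Late ND was compared with early ND to ask how the timing of surgery shows in blood. All 4 hemoglobin genes had lower estimates in late ND mice, and Hbb-bt was the 1 gene of the 4 that passed the threshold. It was 5.44 times lower, with a log2 fold change of -2.44 (SE 0.60). Its adjusted p was 0.0392 in edgeR's quasi-likelihood test, adjusted by Benjamini-Hochberg across 13315 genes. That 1 of 4 stands against 2.48% of all genes tested called lower. Hbb-bs had -2.38 (SE 0.93, adjusted p = 0.143), Hba-a2 had -1.69 (SE 0.54, adjusted p = 0.0833) and Hba-a1 had -1.72 (SE 0.69, adjusted p = 0.154) in edgeR's test. All 4 had an unadjusted p under 0.05, as had 9.33% of all genes with a lower estimate in late ND mice. After TMM normalization, which sets libraries to the same level over most genes, Hba-a1, Hbb-bs and Hbb-bt did not overlap between the groups, against 2.46% of genes.

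The size of these differences depended on the scaling. Hemoglobin takes so much of a library that a lower share of it raises the CPM of other genes, and the median over all genes was a log2 fold change of 0.014 with TMM and 0.86 with library totals. Under library totals the 4 genes ran from -1.48 to -0.70, or from -2.34 to -1.57 relative to that median, and 4 of 4 were called (1.03% of genes were called lower). Called genes split into 333 higher and 330 lower with TMM, 8923 and 137 with library totals, and 1698 and 333 with totals that left out hemoglobin and 18S counts. The last of these called 4 of 4, against 2.5% of genes lower. DESeq2's Wald test also called 4 of 4 (5.03% of genes lower). Without late 2 and late 3 the estimates were -1.85 for Hba-a1, -1.70 for Hba-a2, -1.90 for Hbb-bs and -2.05 for Hbb-bt. None of the 4, and none of 13440 genes, was then called lower by edgeR at an adjusted p under 0.05, while 2 of 4 and 11% of genes were lower at an unadjusted p under 0.05. The call for Hbb-bt was also lost when any 1 of early 2, early 4, early 5 or the 5 late ND mice was left out (adjusted p = 0.0536 to 0.101 in edgeR's test).

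**Figure D4:**
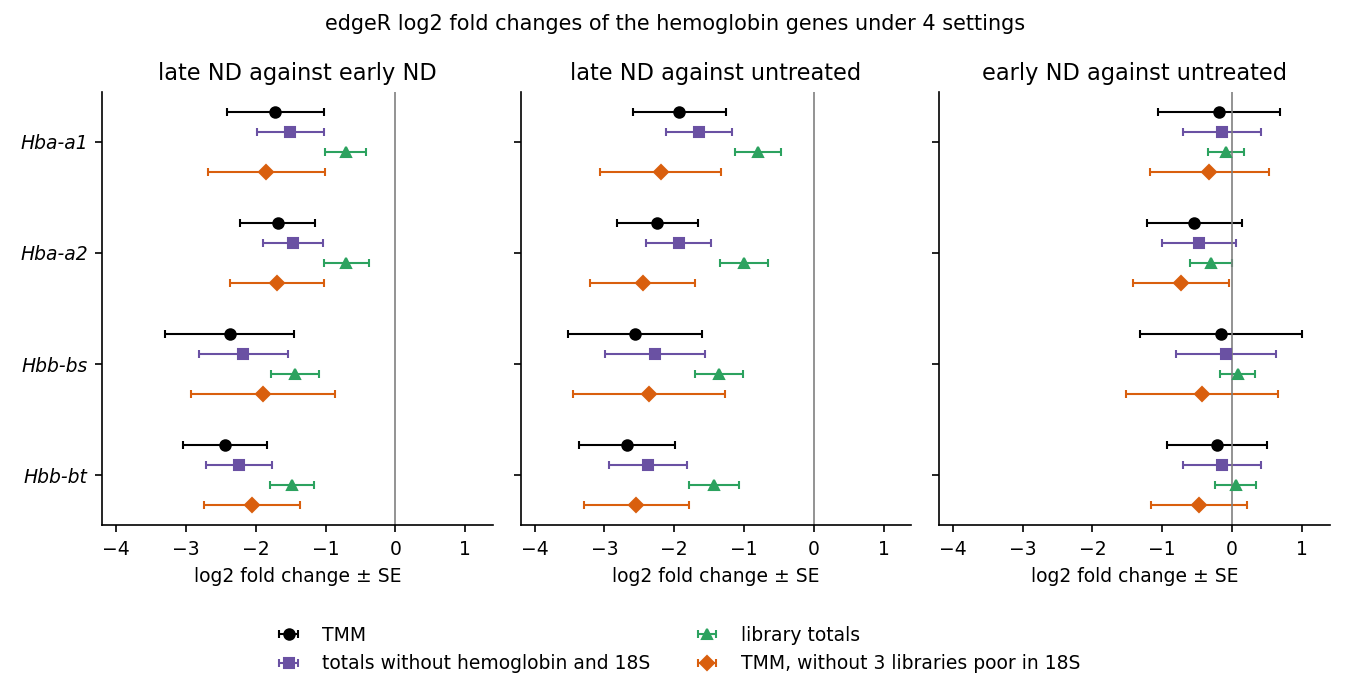
edgeR log2 fold changes with standard errors for the 4 hemoglobin genes in the 3 comparisons of groups, under 4 settings. Both comparisons with late ND lie below 0 in every setting, smallest in size with library totals, and the bars of early ND against untreated reach 0 or lie close to it.

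Against untreated mice, late ND mice had lower estimates for the same 4 genes, and none passed the threshold. The log2 fold changes were -1.93 for Hba-a1, -2.24 for Hba-a2, -2.56 for Hbb-bs and -2.68 for Hbb-bt, with SEs of 0.67, 0.58, 0.96 and 0.69. Their adjusted p were 0.158, 0.0593, 0.192 and 0.0570 in edgeR's quasi-likelihood test, adjusted by Benjamini-Hochberg across 13547 genes, against 2.01% of genes called lower. All 4 had an unadjusted p under 0.05, as had 8.28% of genes with a lower estimate. Both alpha genes had every late ND mouse below every untreated mouse on the TMM scale, as had 2.81% of genes, and the beta genes overlapped through untreated 2. DESeq2's Wald test called 4 of 4 (3.97% of genes lower), as did library totals (0.664%). Totals without hemoglobin and 18S called 2 (1.72%), as did the fit without a filter on low counts (1.02%), and all 3 groups in 1 fit called 1 (1.51%). Without untreated 2, late 2 and late 3, edgeR called none of the 4 and none of 13051 genes lower, while 3 of 4 and 7.36% of genes were lower at an unadjusted p under 0.05. Leaving out untreated 2 or untreated 5 let 1 and 2 of the 4 pass in edgeR's test. With the replicate number as a block, Hba-a2 and Hbb-bt passed (adjusted p = 0.0299 and 0.0221, edgeR's test). The numbers were not taken to pair the mice. Both comparisons with late ND share the late ND mice.

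Early ND mice could not be told from untreated mice in these genes. The log2 fold changes were -0.19 for Hba-a1, -0.54 for Hba-a2, -0.16 for Hbb-bs and -0.21 for Hbb-bt, with SEs of 0.88, 0.68, 1.16 and 0.72. No member and none of 12151 genes (0%) passed an adjusted p of 0.05 in edgeR's test in either direction. The members' unadjusted p were 0.443 to 0.893, while 2.33% of genes were lower in early ND mice at an unadjusted p under 0.05. DESeq2's Wald test called 0 of 4 as well. Under library totals Hbb-bs and Hbb-bt turned to 0.079 and 0.050. The SEs allow a difference of more than 1 log2 unit in either direction for Hbb-bs, so a change of that size was not detectable at this spread.

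Most other globin genes were nearly silent in blood. Hbq1a and Hbq1b, theta globins of the alpha cluster whose product is not known to enter hemoglobin, were the 2 that passed the filter. Hbq1a had 48.2 ± 10.9 CPM in untreated, 30.3 ± 9.94 in early ND and 27.1 ± 9.18 in late ND mice (SD, n = 5). Hbq1b had 35.7 ± 10.4, 38.9 ± 11.4 and 18.1 ± 5.28 CPM in the same order. These genes are near copies of each other, so the split between them is uncertain. Hbq1b was lower in late ND than in early ND mice, with a log2 fold change of -2.12 (SE 0.39, adjusted p = 0.0141, edgeR's quasi-likelihood test), and Hbq1a had -1.15 (SE 0.38, adjusted p = 0.0936). Against untreated mice both fell, by 2.14 and 1.92 on the log2 scale (each adjusted p = 0.0242, edgeR's test). Without the 3 libraries poor in 18S sequence neither gene was called in either comparison, and both were lower at an unadjusted p under 0.05 in each.

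The embryonic beta-like gene Hbb-y had 56 counts in all 15 libraries together, and the embryonic alpha-like gene Hba-x had 12. The embryonic Hbb-bh1, the related Hbb-bh2 and the pseudogenes Hbb-bh3 and Hba-ps3 had 0 counts, Hbb-bh0 had 1 and Hba-ps4 had 11. Myoglobin (Mb), cytoglobin (Cygb), neuroglobin (Ngb) and androglobin (Adgb), oxygen-binding relatives of other tissues, had 91, 147, 5 and 61 counts. Hbb-b1 and Hbb-b2, the adult beta genes of the other common haplotype, were not matched to an identifier.

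Markers of red cell precursors moved with the hemoglobin genes. Of 19 tested genes of the erythroid list, 16 were called lower in late ND than in early ND mice and none higher. The median log2 fold change was -2.15 against 0.014 over all genes. Kel, a blood group protein, had -2.40 (SE 0.41) and Slc4a1, the anion exchanger band 3, had -2.75 (SE 0.48), each with an adjusted p of 0.0126 in edgeR's test. Under library totals 16 of 19 were below 0 and 19 lay below the median of all genes. Without late 2 and late 3 the median was -1.97, 0 of 19 were called by edgeR, and 19 of 19 were lower at an unadjusted p under 0.05. Against untreated mice 13 fell, with a median of -1.99, and without the 3 libraries 0 were called by edgeR and 18 were lower at an unadjusted p under 0.05. Between early ND and untreated mice 0 of 19 were called, with a median of -0.016.

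Hemoglobin counts were also set against the summed counts of the erythroid list. Most of that sum came from Bpgm and Mkrn1. Their medians were 5581 and 2733 CPM in untreated mice, where the median sum was 9298 CPM. In late ND mice they were 2339 and 1440 CPM, with a median sum of 4296 CPM. The ratio of summed counts was 53.7, 34.0, 75.4, 46.6 and 101 in untreated mice 1 to 5. It was 62.3, 46.9, 45.6, 55.1 and 42.9 in early ND mice and 59.2, 34.8, 52.0, 68.2 and 47.7 in late ND mice. The groups overlapped throughout, with means of 62.2 ± 26.5, 50.6 ± 7.98 and 52.4 ± 12.5 (SD, n = 5). The lowest 2 values belonged to untreated 2 and late 2, both poor in 18S sequence. No test was run on this ratio.

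Heme, which each globin chain binds, is built by a chain of enzymes. In late ND against early ND mice 3 of 12 heme synthesis genes fell and 1 rose, with a median of -0.11. Alas2, the first and rate-limiting enzyme in red cell precursors, had 11646 ± 3162 CPM in untreated, 12851 ± 3747 in early ND and 5709 ± 1368 in late ND mice (SD, n = 5). Its log2 fold change was -2.18 (SE 0.44, adjusted p = 0.0215, edgeR's test). Fech, which inserts iron into the ring, had -2.58 (SE 0.38, adjusted p = 0.0119) and Slc25a37, the mitochondrial iron importer mitoferrin, had -1.37 (SE 0.26, adjusted p = 0.0182). The gene that rose was Ppox, a late enzyme of the pathway, at 0.51 (SE 0.13, adjusted p = 0.0432), named here because it was the only 1. Against untreated mice 3 of 12 fell and 0 rose by edgeR, and without the 3 libraries poor in 18S sequence 0 were called and 4 were lower at an unadjusted p under 0.05.

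A further 14 tested genes keep globin chains in balance or guard red cells from the damage of free chains and oxidants. Of these, 5 were called lower in late ND than in early ND mice and 0 higher, with a median of -0.22. Cat, the peroxide-degrading catalase, had -1.51 (SE 0.21, adjusted p = 0.0118, edgeR's test). Ube2o, which marks unassembled alpha globin for degradation, had -2.03 (SE 0.32, adjusted p = 0.0126), and Prdx2, an abundant red cell peroxidase, had -2.06 (SE 0.46, adjusted p = 0.0292). Eif2ak1, the heme-regulated kinase that slows globin translation when heme is short, did not pass, with -0.22 (SE 0.11, adjusted p = 0.250). The same number, 5 of 14, fell against untreated mice, and without the 3 libraries poor in 18S sequence edgeR called 0, with 6 lower and 1 higher at an unadjusted p under 0.05. Ahsp, the chaperone of free alpha chains, was not matched to an identifier and has no value here.

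Of 13 tested transcription factors and cofactors of globin genes, 1 was called lower in late ND than in early ND mice. Of the same genes 0 were called higher, and the median was -0.17. Lmo2, the bridging member of the GATA1 and TAL1 complex, had -1.13 (SE 0.26, adjusted p = 0.0317, edgeR's test). With library totals it had -0.12, where the median of all genes was 0.86. Gata1 had -0.48 (SE 0.20, adjusted p = 0.159) and Zbtb7a, a repressor of fetal globin, had 0.22 (SE 0.09, adjusted p = 0.162). Of 8 tested genes for the capture and breakdown of hemoglobin and heme, 2 fell and 1 rose, with a median of 0.34. Slc48a1, a heme transporter, had -2.08 (SE 0.35, adjusted p = 0.0126) and Blvrb, a biliverdin reductase of red cells, had -1.94 (SE 0.41, adjusted p = 0.0250). Lrp1, the receptor for heme bound to hemopexin, rose by 1.37 (SE 0.27, adjusted p = 0.0207, edgeR's test). Without late 2 and late 3, edgeR called 0 genes of these 4 lists at an adjusted p under 0.05. At an unadjusted p under 0.05, 3 heme synthesis genes were then lower and 2 higher, 5 chain balance genes lower and 3 higher, 2 transcription genes lower and 0 higher, and 2 scavenging genes lower and 3 higher.

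**Figure D5:**
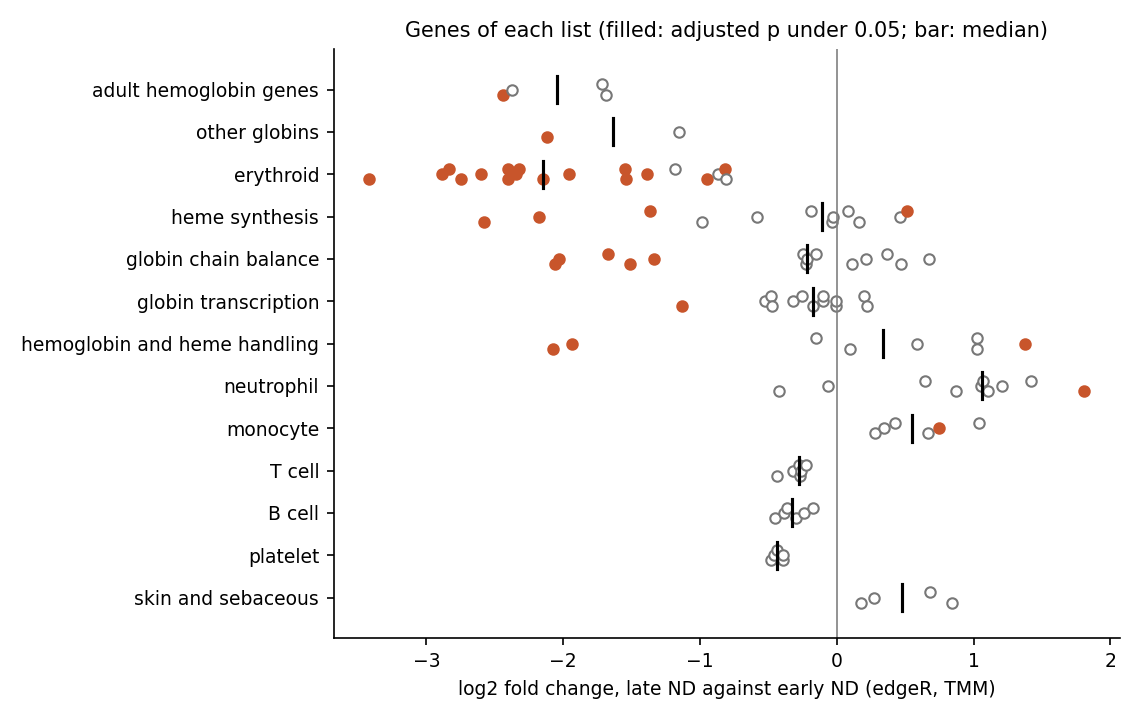
log2 fold change of late against early ND for every tested gene of 13 lists (edgeR after TMM), with the median of each list as a bar and genes with an adjusted p under 0.05 filled. The hemoglobin and erythroid lists lie together, with medians of -2.05 and -2.15, and the lists of white cells, platelets and skin lie between -0.44 and 1.06.

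Few markers of other cells in blood passed the test, 1 of 10 for neutrophils, 1 of 6 for monocytes and none for T cells, B cells, platelets or skin. The 10 neutrophil genes summed to 1619 to 7802 CPM in early ND, 11237 to 19474 CPM in late ND and 2573 to 15248 CPM in untreated mice, and none was at 0 throughout. Of them, 2 had negative log2 fold changes in late ND against early ND mice, Camp at -0.42 and Ltf at -0.066. In the same comparison 1 was called higher, and the list had a median log2 fold change of 1.06. Its 3 leading genes were Mmp8, a collagenase of neutrophil granules, at 1.81 (adjusted p = 0.0496, edgeR's test), Mmp9, a gelatinase, at 1.11 (adjusted p = 0.0520) and Retnlg, a resistin-like secreted protein, at 1.42 (adjusted p = 0.0535). Of the 6 monocyte genes 1 rose, Csf1r, the receptor for macrophage growth factor, at 0.75 (adjusted p = 0.0425, edgeR's test), beside Ccr2 at 1.04 and Lyz2 at 0.67. The 6 genes summed to 4708 to 6638 CPM in late ND and 1204 to 2962 CPM in early ND mice. Lyz2 was the largest part of that sum, with means of 4527 and 1508 CPM. The neutrophil and monocyte sums are CPM of library totals, where the median of all genes was 0.86 higher on the log2 scale in late ND mice. Without late 2 and late 3, edgeR called none of either list, and 8 neutrophil and 2 monocyte genes were higher at an unadjusted p under 0.05. With late 2 and late 3 kept, 14.4% of all genes were higher at that level. None of the T cell, B cell, platelet or skin genes passed, with medians of -0.27, -0.33, -0.44 and 0.48. Without late 2 and late 3 the medians were -0.32, -0.80, -0.42 and 0.99, and edgeR again called none. At an unadjusted p under 0.05, 5 B cell genes and 1 platelet gene were then lower, as were 11% of all genes. No T cell or skin gene was lower there, and no gene of the 4 lists was higher. The sums were 191 to 389 CPM in early ND and 310 to 495 in late ND mice for the T cell list, 502 to 1354 and 531 to 2394 for the B cell list, 1318 to 3217 and 2216 to 3818 for the platelet list, and 28.9 to 569 and 140 to 1186 for the skin list. The 3 genes of smallest p were Cd28, Cd3e and Cd3d among T cell genes, Ms4a1, Cd79b and Pax5 among B cell genes, Itga2b, Tubb1 and Ppbp among platelet genes, and Scd3, Krt79 and Far2 among skin genes. The platelet gene Gp1bb was at 0 in all 15 libraries. Under library totals every tested gene of these 4 lists was above 0, where the median of all genes was 0.86. The part of white cell numbers in the hemoglobin shares was not tested.

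The genes whose levels most resembled summed hemoglobin were sought among 9420 genes, by Pearson's r of log2 CPM over 15 libraries on totals without the 4 genes. They were Oaz1-ps (r = 0.970), Sh3glb1 (0.969), Oaz1 (0.966), Psme3 (0.961), Cdr2 (0.960), Ube2l6 (0.956), Isca1 (0.955), Slc25a39 (0.953), Etohd2 (0.952) and Slc48a1 (0.949). Oaz1 encodes antizyme, which limits polyamine synthesis, and Oaz1-ps is its pseudogene copy, so reads may be split between them. Psme3 encodes a proteasome activator, Ube2l6 a conjugating enzyme, Isca1 an iron-sulfur cluster protein and Slc25a39 a mitochondrial glutathione carrier. Of the lists, the closest after Slc48a1 were Fech (r = 0.942), Alas2 (0.934) and the erythroid genes Mkrn1 (0.923) and Tspo2 (0.923), while Gata1 had r = 0.063. Over the 12 libraries with more 18S sequence, r was 0.953 to 0.990 for the 10 genes, 0.922 for Fech, 0.960 for Alas2, 0.942 for Mkrn1, 0.937 for Tspo2 and 0.246 for Gata1. These genes were named by the size of r alone. The libraries share groups and scaling, so r is a description of likeness in these samples.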

How the data were processed

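RNA of whole blood was read in 15 mice as pairs of 150 base reads. Per the labels, the authors aligned reads with STAR 2.7.9 to GRCm39, sorted them with SAMtools 1.7 and deposited raw counts per Ensembl gene from HTSeq 0.13.5, with no normalization. The submitters' notes also list mm10. The annotation release and strand setting are not given in the sources used here. Of 55416 identifiers, 54749 matched a symbol in GENCODE M39.

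CPM, shares and ratios were computed from the counts with Python 3.11.15, pandas 2.3.3 and scipy 1.17.1. Groups came from the labels, and mice were the replicates (5 per group). Each pair of groups was fitted with edgeR 4.0.16 in R 4.3.3 (TMM, filterByExpr, quasi-likelihood test, Benjamini-Hochberg over all genes tested). The fit was tested on simulated counts. Log2 ratios and shares were tested between groups by exact permutation, with both sides counted. DESeq2 1.42.0, other scalings and filters, a replicate block, all groups in 1 fit, summed copies and omitted libraries were alternatives. A library was called poor in 18S sequence under 5000 CPM of Rn18s-rs5. Coding sequences were compared with biopython 1.88. Replicates were not repeat deposits, since counts of each pair differed by more than sampling noise (chi-square per degree of freedom 14.1 or more).

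The members, the lists and the set poor in 18S sequence were chosen with earlier results of these data known. Named were the 4 members, the other globins, the 3 genes per list with the smallest p in late against early ND, Ahsp, Eif2ak1 and Alas2, and the 10 genes most correlated with summed hemoglobin. A gene that this rule names is not reported here. Further genes, such as Ppox and the list genes closest in r, were named after their values were seen. The p-values measure the spread between mice only.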

Additional observations from a re-analysis of the deposited data

Results flagged for a closer look

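In groups of 5 the value farthest from its neighbour was compared with Dixon's 95% limit for 27 groups of values, of which chance alone would pass about 1 in 20. The alpha to beta count ratio of untreated 2 was 1.79, while the other 4 untreated mice had 0.485 to 0.558. The share of beta counts taken by Hbb-bs in early 5 was 85.6%, while the other early ND mice had 89.1% to 90.4%. Early 5 also had the lowest Hba-a1 share, at 72.6%, and the largest share of unique read pairs set aside as ambiguous between genes, at 3.03% against 1.19% to 2.35% in the other 14 libraries, and the part of that in either share was not tested.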

How the results depend on the processing

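In the 2 comparisons with late ND, 160 alternative estimates of the members' log2 fold changes kept their direction, 121 also kept their side of the threshold, 28 gained the call and 11 lost it. Members called in late against early ND numbered 1, with 4 under DESeq2's Wald test, library totals, and totals without hemoglobin and 18S, 0 with the copies summed or without late 2 and late 3, and 0 to 2 with each mouse left out. In late ND against untreated mice they numbered 0, with 4 under DESeq2's Wald test and library totals, 2 under totals without hemoglobin and 18S and without a filter on low counts, 1 with all 3 groups in 1 fit, and 0 to 2 with each mouse left out. Early ND against untreated mice gave 0 throughout.

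With the replicate number as a block, 0 members were called in late against early ND and 2 in late ND against untreated mice (Hba-a2 and Hbb-bt, adjusted p = 0.0299 and 0.0221, edgeR's test), and early ND against untreated mice gave 0.12 for Hbb-bs and 0.091 for Hbb-bt. No label says that a number marks a shared animal, batch or day. The deviations of same-numbered mice correlated by a mean of -0.0085 in late against early ND, 0.27 in late ND against untreated and -0.13 in early ND against untreated mice. In that order 1, 4 and 0 of 5 pairs had a correlation over 0.1, and 1, 3 and 0 correlated best with their own number. Not every pair passed 0.1 in any comparison, so the numbers were not taken to pair the mice, although late ND and untreated mice came close. Paired by number, the log2 alpha to beta ratio was 0.86 and 0.56 higher in late ND than in early ND and untreated mice (exact sign-flip permutation tests, each p = 0.0625, the smallest that 5 pairs allow).

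Directions that turned were among differences that passed no test. In early ND against untreated mice, library totals gave 0.079 for Hbb-bs and 0.050 for Hbb-bt, and with 1 mouse left out the ranges were -0.55 to 0.069 for Hba-a1, -0.60 to 0.21 for Hbb-bs and -0.54 to 0.29 for Hbb-bt. The log2 alpha to beta ratio turned to 0.053 without untreated 2 (range -0.42 to 0.053). For Hba-a1's share of alpha counts, late against early ND ranged from -3.36 to 1.06 percentage points and the median of the mice gave -1.29 in late ND against untreated mice. For Hbb-bs's share of beta counts, leaving out the 3 libraries poor in 18S gave 0.874 in late against early ND and -0.249 in early ND against untreated mice. With 1 mouse left out it ranged from -1.38 to 0.114 (late against early ND), -0.760 to 0.903 (late ND against untreated) and -0.249 to 1.51 (early ND against untreated). Causes were not tested. Reads that fit both copies of a pair are missing from all values.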
